A study of Mus musculus with 12 samples.

Results

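The results below concern the cortex of mice labelled as conditional knockouts (cKO) of Srsf10 and the cortex of their labelled controls. The libraries were chosen by their labels alone, as the 6 of the series' 12 libraries that came from cortex, 3 per group. All mice were of the C57BL/6 strain and carried the floxed Srsf10 allele on both chromosomes (flox/flox). The cKO mice also carried a Nestin-Cre transgene, which the controls lacked. Cre recombinase removes the DNA between loxP sites, and the Nestin promoter drives it in neural progenitors. Neurons and macroglia descended from these progenitors inherit the recombined allele, whereas microglia and blood vessels arise from other lineages. No cortex group carried Nestin-Cre without floxed Srsf10, so loss of Srsf10 and an effect of the transgene cannot be told apart. No age was given for the mice. Whether the libraries represent different animals is not stated in the labels, so p-values measure only the spread between these libraries. In bulk tissue, fewer cells of a type and less RNA per cell cannot be told apart.

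Srsf10 encodes a member of the SR protein family, RNA-binding proteins that carry a domain rich in arginine and serine and help to decide which exons the spliceosome joins. SR proteins are switched by phosphorylation, and many of them regulate the splicing of their own transcripts and of each other's. In the developing cortex, radial glia divide to give neurons of the deep and then the upper layers, while inhibitory interneurons and the earliest oligodendrocyte precursors migrate in from the ventral forebrain. The files hold a single count per gene and library, so splicing itself was not analysed here.

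The 6 libraries held 32560159 to 36713205 counts, with 19265 to 19781 genes detected. Cortical markers were present in each of them, with the projection neuron gene Neurod6 at 610 to 786 counts-per-million (CPM, scaled by TMM factors here and below), Tbr1 at 203 to 235 CPM and the dorsal forebrain gene Emx1 at 20.7 to 26.5 CPM. The 42 Hox genes of hindbrain and spinal cord summed to at most 1.64 CPM. Cldn5, which marks vessel endothelium, was at only 0.246 to 0.699 CPM although the endothelial gene Pecam1 stood at 17.1 to 26.6 CPM. By Xist and Ddx3y the controls were 1 female and 2 males and the cKO libraries 2 females and 1 male. Choroid plexus transcripts, summed over a list of markers, reached 1433 CPM in control 2 and 1330 CPM in cKO 3 against 144 to 233 CPM elsewhere. Control 2 also stood apart on the first principal component, which held 28.8% of the variance, at 47.4 against -23.6 to 1.88.

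Srsf10 itself was examined first. Its level was 198, 220 and 202 CPM in controls 1 to 3 and 223, 187 and 224 CPM in cKO libraries 1 to 3. The lowest and the highest value were both in cKO libraries, and the groups overlapped. The log2 fold change (cKO minus control throughout) was 0.03 with a standard error (SE) of 0.08. The Srsf10 count thus does not separate the groups, and a count over the whole gene cannot show whether a floxed exon was removed. Every direction given here rests on the labels.

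Cortex labelled cKO differed from control in few genes, and most of these were lower. By edgeR's quasi-likelihood test 27 of 15781 tested genes (0.171%) passed a Benjamini-Hochberg adjusted p of 0.05, 6 of them higher (0.038%) and 21 lower (0.133%). The 21 falls lay between -0.42 and -0.98 on the log2 scale, and 4 of the 6 rises were at least 2-fold. For each of the 27 genes the 3 cKO values lay outside the range of the 3 control values, which held for 17.3% of all tested genes, 8.52% higher and 8.78% lower. All 27 kept their direction under each of 14 other settings. As the groups did not overlap for these genes, leaving out a library could not have reversed a direction, so this does not test it. The number past the threshold did not hold: 0 genes passed without cKO 1 (1096 at an unadjusted p under 0.05) and 1 without cKO 3. Without cKO 2 there were 16, of which 9 were among the 27. With sex in the model there were 12, all among the 27. Without control 1 there were 24, of which 2 were rises and 18 were among the 27. Without control 3 there were 19, of which 3 were rises and 16 were among the 27. At an unadjusted p under 0.05, 10.9% of tested genes differed, 5.36% higher and 5.53% lower. DESeq2 called 0.704% of 15476 genes higher and 1.3% lower, and all 27 genes were among them. Called genes were spread over the genome, with 0 to 4 on each chromosome, and 24 of the 27 were protein-coding.

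Gramd1a (ENSMUSG00000001248, chromosome 7, 31130127 to 31155896, minus strand, mm10) encodes a protein of the endoplasmic reticulum that takes cholesterol from the plasma membrane. It stood at 187, 167 and 166 CPM in controls and at 81.6, 84.6 and 97.8 CPM in cKO. All 3 cKO libraries were far below the lowest control, and the gene fell by 0.98 on the log2 scale (SE 0.08, adjusted p = 0.00341). This was the call that held most often, in 12 of the 14 other settings, and the gene that passed without cKO 3. Its relatives were not called: Gramd1b had 0.17 and Gramd1c 0.27, and the 20 tested genes of sterol transfer and GRAM proteins had a median of 0.01. Atp6v1d, a subunit of the proton pump that acidifies lysosomes and synaptic vesicles, stood at 128, 115 and 117 CPM in controls and 64.7, 76.5 and 67.8 CPM in cKO (-0.79, SE 0.08, adjusted p = 0.00692). It was the 1 call among 22 tested genes of that pump, whose median was -0.01. Pi4ka, the kinase that makes phosphatidylinositol 4-phosphate at the plasma membrane, stood at 151, 153 and 165 CPM in controls and at 109, 108 and 109 CPM in cKO. The cKO values were almost equal to each other, and the fall was 0.52 on the log2 scale (SE 0.06, adjusted p = 0.0115).

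Slc26a7, an anion exchanger, stood at 23.2, 22.7 and 27.8 CPM in controls and 14.1, 13.6 and 14.3 CPM in cKO, with all cKO values below the controls (-0.81, SE 0.11, adjusted p = 0.0231). Slc5a3, which brings myo-inositol into cells, stood at 37.2, 44.5 and 37.6 CPM against 26.1, 25.7 and 22.3 CPM (-0.68, SE 0.11). Slc5a3 shares 159 exonic bases with Mrps6, which had 0.15 and was not called. Of the 10 tested genes of inositol and osmolyte transport Slc5a3 was the 1 call, and their median was 0.03. Prpsap1, a regulatory partner of the enzyme that makes phosphoribosyl pyrophosphate for nucleotides, stood at 70.1, 58.5 and 58.4 CPM in controls and 35.1, 35.5 and 38.2 CPM in cKO (-0.78, SE 0.10, adjusted p = 0.0173). Of 23 tested genes of nucleotide synthesis 19 had negative values, with a median of -0.06. At an unadjusted p under 0.05, 4 were lower, among them Impdh2 of guanine nucleotide synthesis (-0.41) and the adenosine kinase gene Adk (-0.27).

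Ensa (ENSMUSG00000038619, chromosome 3, 95624993 to 95632102, plus strand) encodes endosulfine alpha, which blocks the phosphatase PP2A-B55 at mitotic entry. It stood at 168, 155 and 163 CPM in controls and at 102, 106 and 103 CPM in cKO. The cKO values lay close together and well below every control, by -0.65 (SE 0.06, adjusted p = 0.00401). Arpp19, its close relative, had -0.05, and Mastl, the kinase that activates both, had 0.66 (adjusted p = 0.260). Nasp (ENSMUSG00000028693, chromosome 4, 116601052 to 116627941, minus strand), a chaperone of linker and H3-H4 histones, stood at 236, 230 and 224 CPM in controls and 157, 145 and 158 CPM in cKO (-0.58, SE 0.06, adjusted p = 0.00692). Among 32 tested histone chaperone genes it was the 1 call, the median was -0.03, and the other members at an unadjusted p under 0.05 were Npm3 (-0.33), Mms22l (0.46), Hjurp (0.21) and Dek (0.15). Polb, the gap-filling polymerase of base excision repair, stood at 60.4, 56.6 and 53.1 CPM against 31.7, 35.4 and 35.8 CPM (-0.72, SE 0.09, adjusted p = 0.0173). The other 21 tested genes of base excision repair were not called, and Parp2 (-0.26) was the other member at an unadjusted p under 0.05.

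For RNA processing, the fall of Sf3b3, a subunit of the U2 particle that binds the branch point, was the smallest of the 27 changes. It stood at 183, 171 and 180 CPM in controls and at 141, 129 and 131 CPM in cKO (-0.42, SE 0.06, adjusted p = 0.0348). Its partner Sf3b1 pointed the other way, at 623, 667 and 607 CPM in controls and 750, 682 and 725 CPM in cKO, with a log2 fold change of 0.19 that was not called. Dhx29, a helicase that helps ribosomes scan structured leaders, stood at 52.4, 49.96 and 51.2 CPM against 32.3, 35.2 and 31.4 CPM (-0.63, SE 0.08, adjusted p = 0.0218). Dlx1as, a long RNA transcribed antisense to the interneuron gene Dlx1, stood at 83.9, 80.8 and 74.8 CPM in controls and at 53.3, 56.0 and 52.8 CPM in cKO (-0.56, SE 0.08). It shares 20.6% of its exonic bases with Dlx1, and no source used here names the strand setting of the counting, so reads of the pair cannot be told apart. Zfp882, a zinc finger gene, stood at 22.7, 23.9 and 25.4 CPM against 16.3, 13.8 and 13.8 CPM (-0.71, SE 0.11).

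Wsb1, a substrate receptor of a ubiquitin ligase, was the most highly counted of the 27 genes, at 313, 351 and 289 CPM in controls and 194, 197 and 189 CPM in cKO (-0.71, SE 0.08, adjusted p = 0.00692). Lztr1, an adaptor through which a cullin ligase removes Ras proteins, stood at 143, 127 and 134 CPM against 92.2, 92.3 and 100.2 CPM (-0.50, SE 0.07). Lztr1 lies 102 kb from Pi4ka on chromosome 16, and the tested genes between them, Crkl (0.05) and Aifm3 (0.43), were not called. Dzip1, a basal body protein needed for Hedgehog signalling, stood at 113, 103 and 98.0 CPM against 65.5, 70.7 and 60.9 CPM (-0.67, SE 0.08), and shares 28.4% of its exonic bases with Gm49179 on the opposite strand, which was not analysed here. The 35 tested genes of Hedgehog signalling and the primary cilium had a median of 0.01. Gpr17, a receptor of oligodendrocyte precursors on their way to myelination, stood at 26.8, 26.0 and 24.2 CPM against 15.5, 15.4 and 13.5 CPM (-0.79, SE 0.10, adjusted p = 0.0213). Ilkap, a phosphatase of the integrin-linked kinase (-0.64), Nucb2, the precursor of nesfatin (-0.63), and Ahsa2, a co-chaperone gene of the Hsp90 system (-0.43), also fell. Ahsa2 shares 47.2% of its exonic bases with Usp34 on the opposite strand, which had 0.10. Gm10052, a processed pseudogene that may share reads with its parent gene, had -0.57.

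Of the 6 rises, that of Cnr2 is described with the neighbourhood of Srsf10. Eda2r (ENSMUSG00000034457, chromosome X, 97333840 to 97377216, minus strand) encodes the receptor of ectodysplasin A2, a member of the TNF receptor family and a known target of p53. It stood at 2.29, 3.55 and 1.96 CPM in controls and at 12.8, 7.63 and 11.5 CPM in cKO. Every cKO library was far above the highest control, and the fitted change was 2.04 (SE 0.27, adjusted p = 0.0213). The gene is X-linked, and with sex in the model the change was 2.11 (adjusted p = 0.0448). It no longer passed without control 1, cKO 1 or cKO 3, where it was 1.95, 1.88 and 1.98. Gm3604, a gene model on chromosome 13, stood at 2.03, 2.53 and 2.81 CPM against 8.79, 5.76 and 9.27 CPM (1.69, SE 0.23, adjusted p = 0.0231). Gm42047, a long intergenic non-coding RNA on chromosome 8, stood at 27.3, 26.3 and 22.5 CPM against 57.9, 91.0 and 47.7 CPM (1.37, SE 0.20), and its cKO values were the most uneven among the rises above 10 CPM. Aldh5a1, the last enzyme of GABA breakdown, stood at 68.5, 72.2 and 69.7 CPM in controls and 98.3, 103 and 91.6 CPM in cKO (0.48, SE 0.07, adjusted p = 0.0385). Mbip, a component of the ATAC histone acetyltransferase complex that also binds the kinase MAP3K12, stood at 25.4, 23.1 and 21.7 CPM against 38.3, 33.0 and 36.8 CPM (0.62, SE 0.10, adjusted p = 0.0476).

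**Figure D1:**
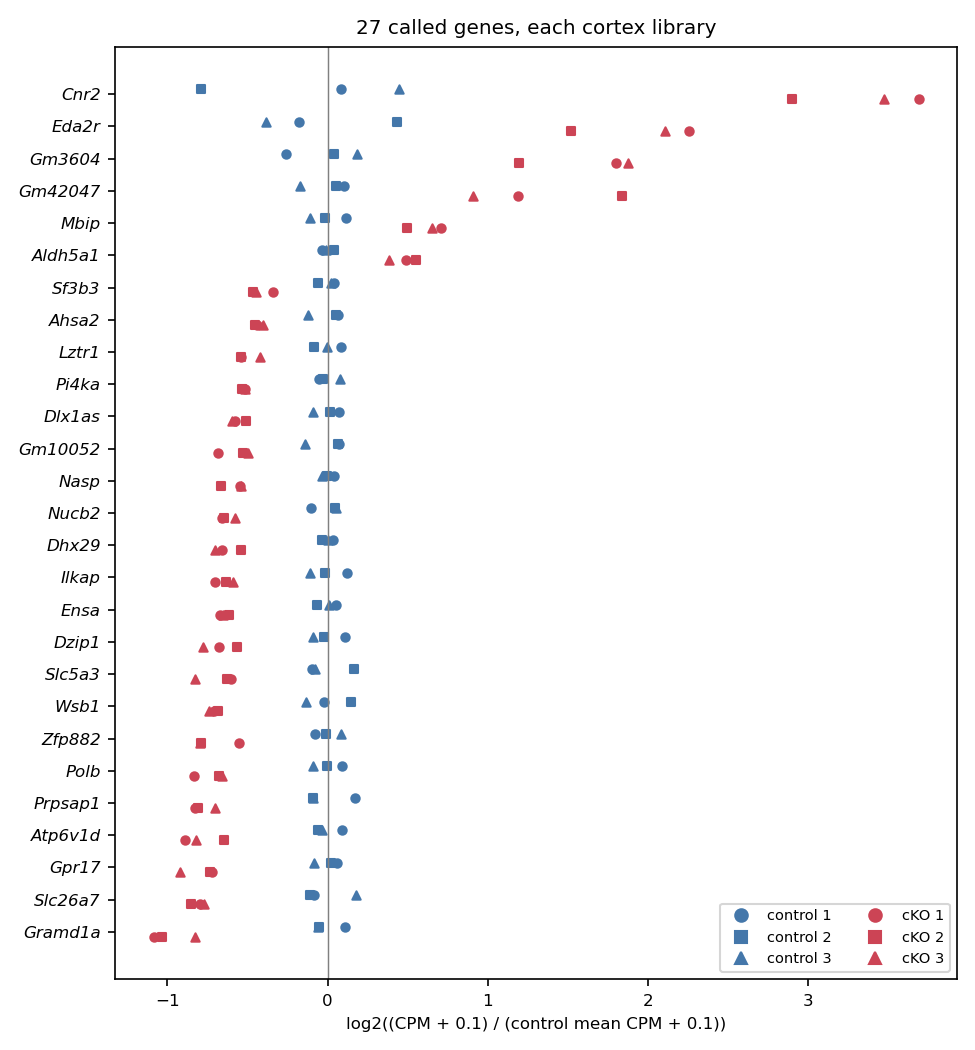
Each of the 27 called genes is a row, and each cortex library is a point at the log2 ratio of its CPM to the control mean, with 0.1 CPM added to both. Blue points are controls and red points cKO libraries, with the replicate given by the shape; in every row the red points lie to 1 side of the blue ones, 21 rows to the left and 6 to the right.

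The sequence around the start of transcription is shown for 5 called genes described above or next, chosen after their values were seen: Gramd1a, Ensa and Nasp among the falls and Eda2r and Cnr2 among the rises. Each runs 5′ to 3′ from 250 bases before to 50 bases after the RefSeq start (GRCm38.p6, the build of mm10), and capitals mark CCAAT, the pentamer bound by the factor NF-Y, on either strand (ATTGG on the reverse). The windows are chr7:31151122-31151421 on the minus strand for Gramd1a, chr3:95624730-95625029 on the plus strand for Ensa, chr4:116627902-116628201 on the minus strand for Nasp chrX:97377160-97377459 on the minus strand for Eda2r, and chr4:135894939-135895238 and chr4:135911430-135911729 on the plus strand for the 2 starts of Cnr2. The start of Gramd1a in RefSeq lies inside the longer gene annotated by GENCODE.
Gramd1a: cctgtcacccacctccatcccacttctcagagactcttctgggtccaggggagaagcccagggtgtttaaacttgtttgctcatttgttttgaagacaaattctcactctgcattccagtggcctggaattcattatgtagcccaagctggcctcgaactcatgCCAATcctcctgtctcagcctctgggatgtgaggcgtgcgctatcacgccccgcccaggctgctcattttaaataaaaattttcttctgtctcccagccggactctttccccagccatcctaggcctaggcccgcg
Ensa: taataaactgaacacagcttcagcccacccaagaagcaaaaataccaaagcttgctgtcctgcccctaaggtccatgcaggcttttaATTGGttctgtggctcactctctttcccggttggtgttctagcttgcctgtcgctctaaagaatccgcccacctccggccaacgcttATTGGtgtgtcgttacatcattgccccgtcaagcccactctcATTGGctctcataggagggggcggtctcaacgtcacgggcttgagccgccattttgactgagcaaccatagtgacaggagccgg
Nasp: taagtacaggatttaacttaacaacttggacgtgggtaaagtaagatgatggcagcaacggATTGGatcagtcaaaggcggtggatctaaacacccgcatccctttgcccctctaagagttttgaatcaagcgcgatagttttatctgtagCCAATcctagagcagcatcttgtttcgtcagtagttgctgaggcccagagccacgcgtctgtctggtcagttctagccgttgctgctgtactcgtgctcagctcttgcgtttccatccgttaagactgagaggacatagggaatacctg
Eda2r: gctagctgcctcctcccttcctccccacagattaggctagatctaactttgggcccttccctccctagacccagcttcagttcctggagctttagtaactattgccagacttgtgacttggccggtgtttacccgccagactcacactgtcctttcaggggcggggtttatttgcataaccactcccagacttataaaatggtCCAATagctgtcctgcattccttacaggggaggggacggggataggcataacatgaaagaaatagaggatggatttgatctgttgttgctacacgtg
Cnr2 upstream start: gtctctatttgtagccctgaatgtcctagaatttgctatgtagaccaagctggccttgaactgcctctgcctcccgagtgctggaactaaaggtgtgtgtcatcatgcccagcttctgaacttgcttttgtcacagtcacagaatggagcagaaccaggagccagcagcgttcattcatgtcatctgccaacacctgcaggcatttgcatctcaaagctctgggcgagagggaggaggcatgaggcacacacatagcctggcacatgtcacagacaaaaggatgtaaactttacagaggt
Cnr2 downstream start: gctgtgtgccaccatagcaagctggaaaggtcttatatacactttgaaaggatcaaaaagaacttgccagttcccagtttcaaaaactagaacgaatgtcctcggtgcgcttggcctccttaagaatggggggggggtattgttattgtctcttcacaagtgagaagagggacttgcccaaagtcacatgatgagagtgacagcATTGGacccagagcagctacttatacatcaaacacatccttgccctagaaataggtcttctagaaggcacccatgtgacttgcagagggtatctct
The Ensa window held 3 copies, the Nasp window 2, the Gramd1a, Eda2r and downstream Cnr2 windows 1 each, and the upstream Cnr2 window 0. RefSeq windows were found for 20 of the 27 called genes, and 17 of the 20 held CCAAT on either strand, against 42.6% of the 11670 tested genes with a window. Per window the numbers were 17 of 25 and 37.3% of 15015. None of the other motifs, counted on both strands, contains CCAAT or lies within it: TATAAA stood in 4 of the 20 called genes and 9.25% of all, GGGCGG in 11 and 66.6%, TGACG in 8 and 33.7%, and the p53 half-site in 4 and 8.44%. The motifs were chosen after the changes were seen, and these shares are descriptions without a test.

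Cnr2 rose in the immediate neighbourhood of Srsf10. It encodes the cannabinoid receptor known mainly from immune cells and begins 25.5 kb downstream of Srsf10, on its strand (ENSMUSG00000062585, chromosome 4, 135895394 to 135920207). Controls held 3, 0 and 5 counts and cKO libraries 70, 41 and 67, or at most 0.136 CPM against 1.19 to 2.14 CPM. The fitted log2 fold change of 4.44 (SE 0.66, 95% interval 2.99 to 5.90, adjusted p = 0.0331) depends on how counts near 0 are handled. The change of Cnr2 ranged from 3.87 to 5.19 over the 14 other settings, and the gene passed in only 4 of them. With sex in the edgeR model its adjusted p was 0.0896. Among microglial markers, Cx3cr1 stood at 15.2 to 18.01 CPM in controls and 16.8 to 18.2 CPM in cKO, and the microglia and macrophage list summed to 159, 127 and 178 CPM in controls and 165, 168 and 169 CPM in cKO. Of 14 tested genes of that list 0 differed at an unadjusted p under 0.05. The other cannabinoid receptor gene, Cnr1, had -0.19 and was not called.

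Cnr2 was the 1 called gene among 31 tested genes within 1 Mb of Srsf10, Srsf10 included. The 31 genes had 13 positive and 18 negative values and a median of -0.06. Pnrc2, on the opposite strand, whose nearer end lies 1.01 kb past Srsf10, had -0.13 (56.0, 63.0 and 52.3 CPM against 50.2, 52.3 and 54.4 CPM). At an unadjusted p under 0.05, the others on the higher side were Nipal3 (0.35), Luzp1 (0.22) and Stpg1 (2.17, at no more than 0.794 CPM in any library).

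**Figure D2:**
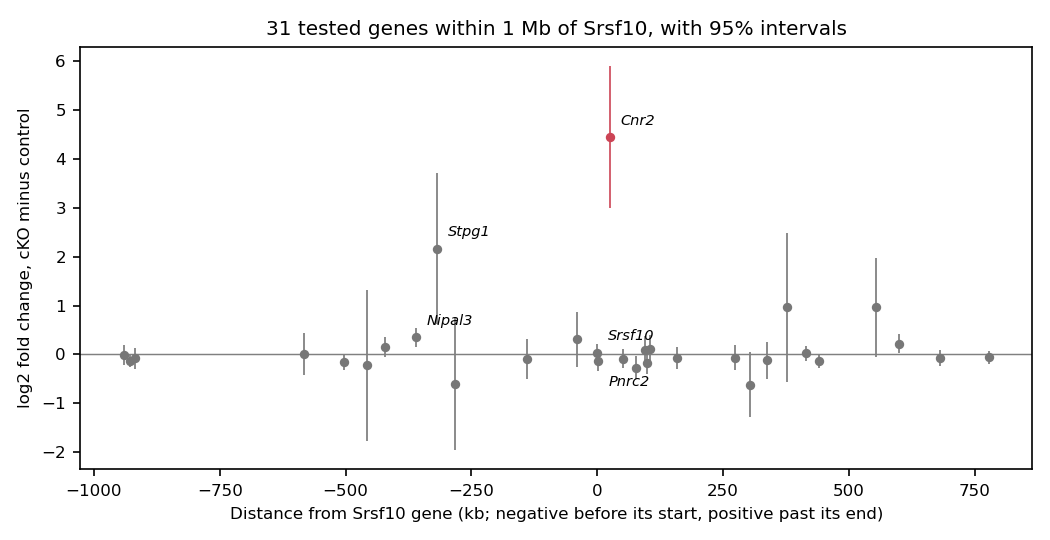
The log2 fold change of each of 31 tested genes is plotted against its distance from Srsf10 in kb, with its 95% interval. Cnr2 (red) lies at 4.44 with an interval from 2.99 to 5.90, and Srsf10 at 0 kb and its neighbour Pnrc2 lie near 0.

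The 10 genes next in order of adjusted p, between 0.0513 and 0.0699, were not called and are given as values. Npepps, an aminopeptidase, had -0.38. Dgka, a diacylglycerol kinase, had -1.17, with 9.12, 8.92 and 8.95 CPM in controls and 2.99, 4.42 and 4.55 CPM in cKO. Tpi1, an enzyme of glycolysis, had -0.47, Sema7a, a membrane-anchored semaphorin, -0.36, Cdc23, a subunit of the anaphase-promoting complex, -0.37, and Fancg, of Fanconi repair, -0.62. On the higher side were Tgfbr3l (1.38), Rnf223 (1.39), Col20a1 (0.70) and Nfe2l2 (0.71), the transcription factor of the antioxidant response, at 9.20, 8.79 and 9.58 CPM in controls and 14.3, 14.7 and 16.004 CPM in cKO.

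Groups of genes were then described by 68 lists of cell type markers, pathways and complexes, of which 65 had at least 5 tested members and 16 held a called gene. Over all 15781 tested genes 7999 values were positive and 7782 negative, with a median of 0.00, and 55 of the 65 lists had a median within 0.1 of 0. Summed CPM lay lower in every cKO library than in every control for histone chaperones, chromatin remodelling and the endocannabinoid system. The same held for the upper-layer neuron, interneuron, oligodendrocyte, unfolded protein response and SR protein lists. For TNF receptor family and NF-kB genes it lay higher. The sum over all tested genes was also lower in every cKO library, but this follows from the TMM factors by which CPM was scaled. Separation of a sum therefore does not by itself mark out a list. The counts given below for single lists are to be read against the shares over all tested genes. At an unadjusted p under 0.05, 5.36% were higher and 5.53% lower. Above every control lay 8.52% and below every control 8.78%, and DESeq2 called 0.704% higher and 1.3% lower.

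**Figure D3:**
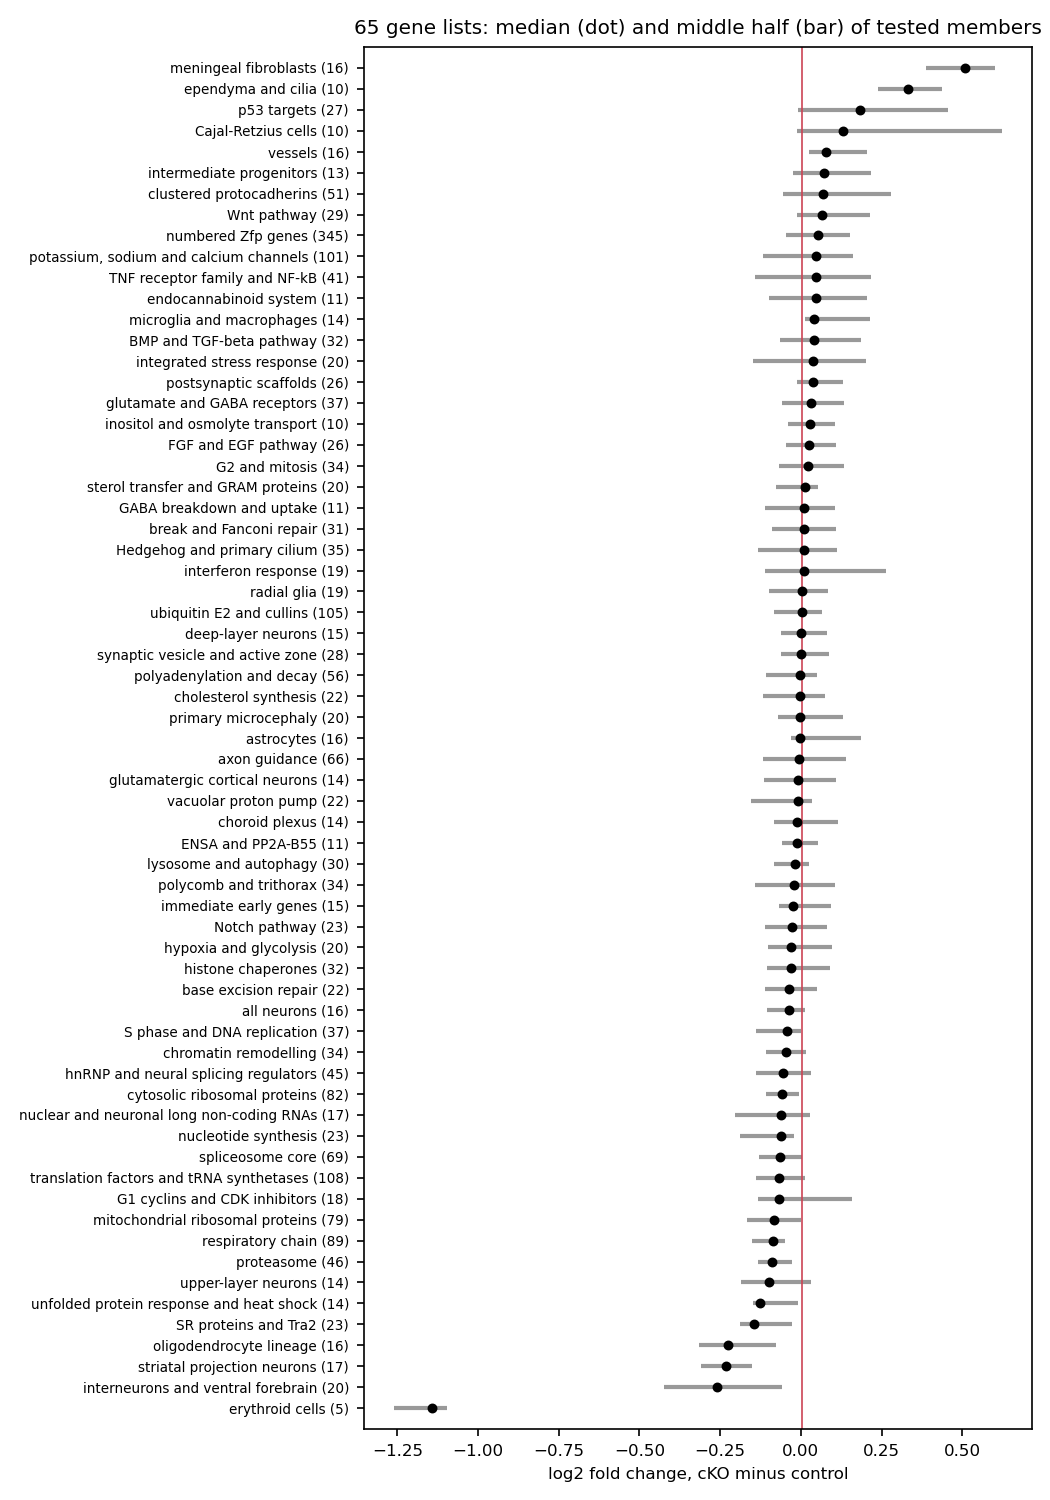
For each of 65 lists with at least 5 tested genes (number in parentheses), the dot is the median log2 fold change and the grey bar runs from the lower to the upper quartile of its tested members; the red line is the median of all tested genes. Most medians lie within 0.1 of 0, and those farther out belong mainly to cell type markers.

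Among neurons, markers of inhibitory interneurons and of the ventral forebrain were lower in cKO, although none of the 20 tested passed over all genes. Of them 16 had negative values, 9 were lower at an unadjusted p under 0.05 and 8 lay below every control, with a median of -0.26; DESeq2 called 5 lower. Maf, a factor of maturing interneurons, stood at 48.1, 47.5 and 52.0 CPM in controls and 36.5, 35.1 and 39.2 CPM in cKO, with all cKO values below the controls (-0.41, adjusted p = 0.1003). The vesicular GABA transporter gene Slc32a1 stood at 27.1, 29.5 and 26.6 CPM against 21.8, 23.4 and 18.3 CPM (-0.39), again without overlap. Gad2, which makes GABA, stood at 61.9, 90.4 and 57.5 CPM against 59.0, 45.7 and 44.2 CPM (-0.49), and here cKO 1 lay within the control range. Among the antisense and long non-coding RNAs of the same loci, Dlx6os1 had -0.54 beside the called Dlx1as. Sst (0.24), Npy (0.02) and Gad1 (-0.06) overlapped between the groups. Summed over the list, the markers reached 886, 944 and 856 CPM in controls and 784, 759 and 741 CPM in cKO, without overlap. The median lay between -0.20 (without control 2) and -0.34 (without control 1 or control 3) when a library was left out, and was -0.16 without the 2 libraries rich in choroid plexus transcripts.

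Striatal projection neuron markers, which come from a neighbouring ventral region, were highest in control 2, at a summed 1089 CPM against 704 to 859 CPM in the other 5 libraries. Their median was -0.23 over 17 tested genes, 0.19 without control 2, -0.50 without control 3 and -0.41 without cKO 1. Their part in the interneuron values was not tested.

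Excitatory neurons showed smaller differences. The 15 deep-layer markers had a median of 0.00, and Tbr1 (0.00) and Fezf2 (-0.07) were not called. The 14 upper-layer markers had a median of -0.10 with 0 called. Mdga1, an adhesion molecule of upper-layer neurons, stood at 136, 150 and 142 CPM in controls and at 117, 119 and 110 CPM in cKO (-0.31, adjusted p = 0.0949), without overlap. Cux2 had -0.26, also without overlap, whereas Cux1 had 0.08 and the plexin gene Plxnd1 0.39. Summed, the upper-layer markers reached 3521, 3648 and 3666 CPM in controls and 3386, 3156 and 3405 CPM in cKO. Neurofilament genes had negative values, Nefm -0.44 and Nefl -0.39, in a list of 16 general neuronal genes with a median of -0.04. Cajal-Retzius markers pointed the other way for some members: Ebf3 had 0.70, Trp73 0.39 and Barhl2 1.84, each without overlap and not called, while Reln had 0.14 and Lhx5 -0.07.

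Oligodendrocyte lineage markers were lower, with Gpr17 called. Of 16 tested genes 13 had negative values, 6 were lower at an unadjusted p under 0.05 and 8 lay below every control, with a median of -0.23; DESeq2 called 3. Bcas1, a gene of newly forming oligodendrocytes, stood at 10.1, 11.3 and 6.60 CPM in controls and at 3.97, 4.45 and 2.62 CPM in cKO (-1.34, adjusted p = 0.0760). Cnp, a myelin enzyme, stood at 25.6, 18.6 and 17.6 CPM against 17.3 CPM at most in cKO (-0.33). Among markers of earlier precursors and of myelin, Pdgfra and Olig2 each had -0.24, near the median of the list. Sox10 (-0.13), Cspg4 (0.06) and Mbp (-0.05) differed less. The markers summed to 851, 905 and 892 CPM in controls and 778, 777 and 727 CPM in cKO, without overlap, and the median was -0.21 without the libraries rich in choroid plexus transcripts.

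Progenitors and astrocytes showed no called gene. Radial glia had a median of 0.00 over 19 tested genes, with Nes at 132, 139 and 132 CPM in controls and 129, 133 and 131 CPM in cKO. Within the list Fam107a had 1.10 (5.16, 4.69 and 2.62 CPM against 8.58, 9.72 and 8.48 CPM), Fabp7 -0.20 and Pax6 -0.33. Intermediate progenitors had a median of 0.07, and Eomes had 0.06. The 16 astrocyte genes had a median of 0.00, with the glutamate transporter gene Slc1a2 at 0.32 and Aldoc at 0.29. Cell cycle lists had medians near 0: 34 genes of G2 and mitosis had a median of 0.02 with 0 at an unadjusted p under 0.05, and 37 S phase genes a median of -0.04 with 4 lower, among them the polymerase gene Pola1 at 17.8, 18.9 and 18.1 CPM against 12.7, 14.2 and 10.5 CPM (-0.55, adjusted p = 0.135).

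Cell types outside the neural lineage varied with single libraries. Meningeal fibroblast genes had a median of 0.51 with 15 of 16 positive, 1.15 without control 3, 0.30 without cKO 2 and 0.09 without control 2, where they summed to 297 CPM against 571 to 848 CPM in the other libraries. Erythroid genes had a median of -1.14, and -0.18 without control 1, which held 47.1 CPM of them against 8.83 to 17.4 CPM elsewhere. Vessel genes had a median of 0.08 and microglial genes of 0.04, with 0 of 16 and 0 of 14 at an unadjusted p under 0.05. The BMP genes Bmp5 (0.99), Bmp6 (0.60) and Bmp7 (0.43), which meninges and choroid plexus also make, were each lowest in control 2, at 1.23, 4.13 and 8.24 CPM. Whether meningeal content set those values was not tested.

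**Figure D4:**
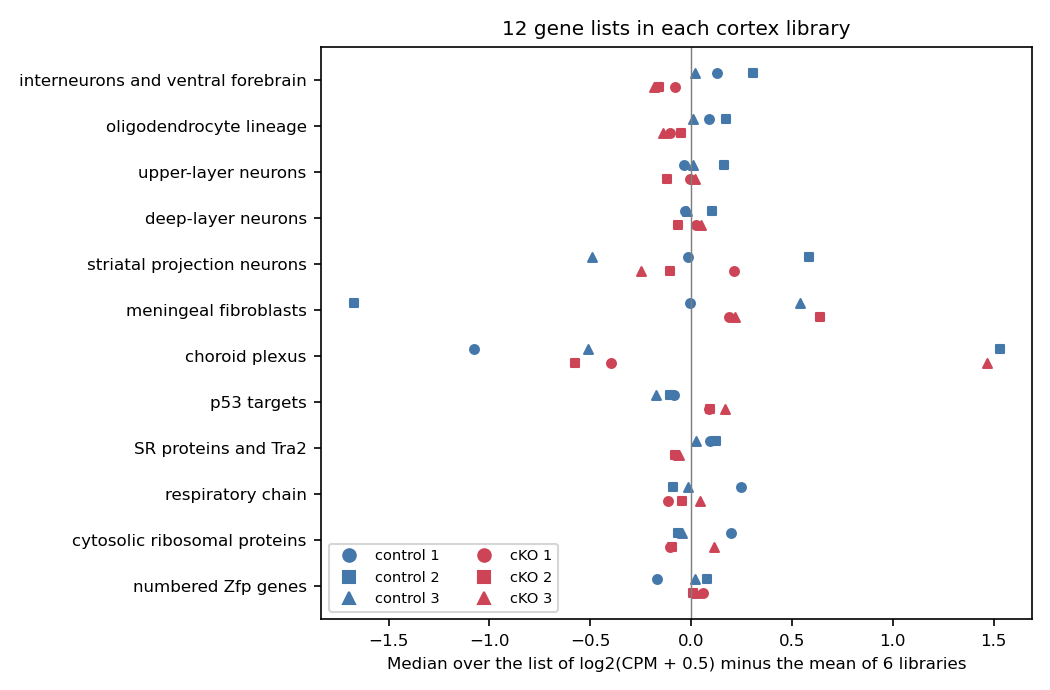
For 12 lists, each point is 1 library at the median, over the tested members, of log2(CPM + 0.5) minus the mean of the 6 libraries; blue is control, red is cKO and the shape gives the replicate. Controls and cKO separate without overlap for interneuron, oligodendrocyte, p53 and SR protein lists, whereas single libraries stand out for meningeal, choroid plexus and respiratory chain genes. Of the lists not drawn, those of S phase, chromatin remodelling, nucleotide synthesis, Wnt, and BMP and TGF-beta genes also separated without overlap.

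Targets of p53, the transcription factor activated by DNA damage and other stress, were mostly higher. Of 27 tested genes 20 had positive values, 8 were higher at an unadjusted p under 0.05, 8 lay above every control, 1 lay below every control and 1 (Eda2r) rose; DESeq2 called 5 higher, and the median was 0.18. The cell cycle inhibitor Cdkn1a stood at 6.55, 7.04 and 7.42 CPM in controls and at 11.5, 11.3 and 13.6 CPM in cKO (0.79, adjusted p = 0.0706). Sesn2, a stress-induced brake on mTORC1, stood at 3.46, 3.18 and 3.90 CPM against 6.14, 5.73 and 6.24 CPM (0.78, adjusted p = 0.131). Polk, a polymerase that copies damaged DNA, stood at 8.25, 8.67 and 7.83 CPM against 12.2, 11.8 and 12.0 CPM (0.54, adjusted p = 0.131). For these genes all cKO libraries lay above all controls. Other targets overlapped between the groups: Mdm2, the inhibitor of p53 and a classical target, stood at 57.6, 70.5 and 57.6 CPM against 60.3, 58.6 and 62.5 CPM (-0.03), and the apoptosis genes Bax and Bbc3 had -0.04 and -0.09. The list's median was 0.25 without the libraries rich in choroid plexus transcripts and 0.16 without control 1. The 20 tested genes of the integrated stress response had a median of 0.04, with Atf4 at -0.19 and Ddit3 at -0.42, neither called. At an unadjusted p under 0.05, 1 of them was higher and 4 were lower. The highest value of that list, 0.78, matched the one given above for Sesn2 among the p53 targets. Of 14 genes of the unfolded protein response and heat shock 10 had negative values, with a median of -0.13; the chaperone gene Calr stood at 444, 394 and 358 CPM in controls and 293, 340 and 304 CPM in cKO (-0.35, adjusted p = 0.170).

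Splicing factor genes were mostly lower by small amounts. Of 23 tested genes of SR proteins, Tra2 proteins and their kinases 18 had negative values, 7 were lower at an unadjusted p under 0.05 and 9 lay below every control, with a median of -0.14 and 0 called; DESeq2 called 3. Srsf7 stood at 284, 272 and 263 CPM in controls and 214, 226 and 224 CPM in cKO (-0.30, adjusted p = 0.0889), and Srsf11 at 255, 273 and 229 CPM against 202, 196 and 209 CPM (-0.32, adjusted p = 0.127). Both lay below every control. Others overlapped between groups, including Srsf2 (-0.12), Srsf5 (-0.07) and Tra2b (-0.10), and Srsf12 had 0.17. Summed, the list reached 4188, 4508 and 4134 CPM in controls and 3800, 3853 and 3888 CPM in cKO. Of 45 tested hnRNP and neural splicing regulators 8 were lower and 4 higher at an unadjusted p under 0.05, with a median of -0.06. Hnrnpa1, which often opposes SR proteins, stood at 377, 350 and 337 CPM against 264, 274 and 286 CPM (-0.37, adjusted p = 0.0706). In the spliceosome core 50 of 69 genes were negative, with a median of -0.07. U2af2, which binds the polypyrimidine tract, had -0.35 in that list and was not called. Malat1, an RNA of nuclear speckles, stood at 512, 508 and 617 CPM in controls and 410, 426 and 309 CPM in cKO (-0.52, adjusted p = 0.136).

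The lists of large complexes and of translation factors had small negative medians that moved with single libraries. The respiratory chain had a median of -0.09 with 78 of 89 negative, the proteasome -0.09 with 39 of 46, the mitochondrial ribosome -0.08 with 59 of 79, the cytosolic ribosome -0.06 with 62 of 82, and translation factors -0.07 with 78 of 108. Without control 1 these medians were 0.02, -0.01, -0.03, 0.03 and -0.04, without control 2 they were -0.16, -0.14, -0.12, -0.11 and -0.10, and without the 2 libraries rich in choroid plexus transcripts they were -0.21, -0.16, -0.17, -0.18 and -0.11. The 345 numbered Zfp genes had a median of 0.05 with 231 positive, -0.03 without control 1 and 0.11 without control 2. The median change varied with exon length, from -0.05 over the 3156 shortest genes to 0.03 over the 3155 longest. Control 1 deviated from the mean of the 6 libraries by 0.12 in the shortest class and by -0.11 in the longest. The part of this slope in the medians of these lists was not tested. Uqcrc1, a subunit of respiratory complex III, was an exception in size at 4.40, 2.31 and 10.6 CPM in controls and 0.733, 0.699 and 0.982 CPM in cKO (-2.83, adjusted p = 0.0706), although its control values ranged widely. It was also low for its list, whose 96 genes summed to between 7829 and 9827 CPM. Whether the counting set its level was not tested.

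**Figure D5:**
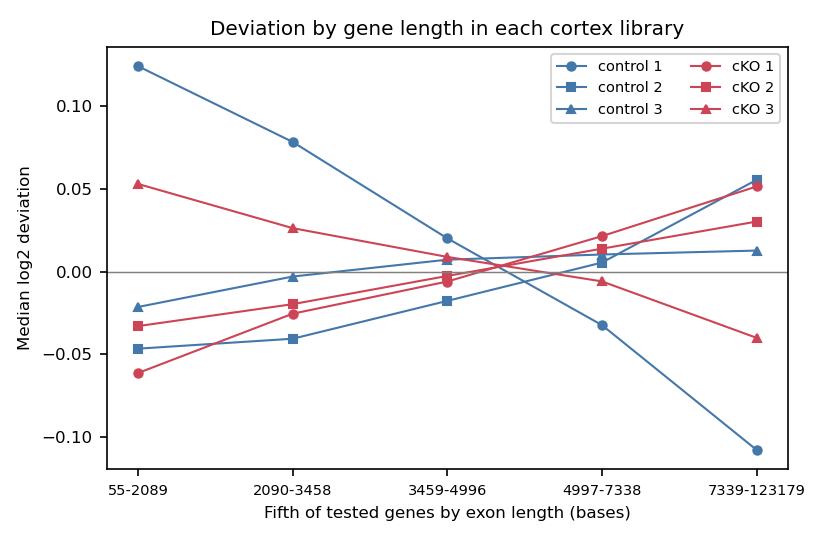
The x axis gives 5 classes of tested genes by exon length in bases, and the y axis the median log2 deviation of each library from the mean of the 6 libraries. Control 1 runs from 0.12 in the shortest class to -0.11 in the longest, cKO 3 runs the same way less steeply, and the other 4 libraries run upward.

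The lists of polycomb and trithorax genes, chromatin remodelling, and break and Fanconi repair held no call. Pcgf6, of a polycomb complex that represses germline genes, had the smallest adjusted p of the polycomb list, at 31.6, 31.5 and 31.4 CPM in controls and 23.3, 22.7 and 23.3 CPM in cKO (-0.45, adjusted p = 0.0717). Both groups were tight and did not overlap. Ezh2, the methyltransferase of polycomb complex 2, had -0.28 and the opposing demethylase gene Kdm6a 0.36, and the 34 polycomb and trithorax genes had a median of -0.02. Among 31 genes of break and Fanconi repair the end-joining gene Xrcc6 had -0.37 and the checkpoint kinase gene Chek2 0.45, with a median of 0.01. Fancg, given above at -0.62, was not a member of that list.

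Synaptic and signalling lists held few differences. Synaptic vesicle genes (28 tested) and postsynaptic scaffolds (26 tested) had medians of 0.00 and 0.04 with 0 called. Among glutamate and GABA receptor genes Grin2d had -0.56, Grm2 -0.37 and Grin2c 0.84. Among 66 axon guidance genes Nrp2 had 0.43, Plxnd1 0.39 and Plxna3 -0.33, with 4 higher and 4 lower at an unadjusted p under 0.05. These axon guidance counts are near the shares over all tested genes, 5.36% higher and 5.53% lower. In the Wnt pathway the receptor gene Fzd7 stood at 13.3, 15.2 and 14.4 CPM in controls and 20.5, 19.8 and 22.5 CPM in cKO, without overlap (0.55, adjusted p = 0.0889), and the median over 29 genes was 0.07. Of 51 clustered protocadherin genes, whose products label neurons for self-recognition, 9 were higher and 1 lower at an unadjusted p under 0.05, with a median of 0.07 that was 0.00 without cKO 2, 0.18 without cKO 3, 0.11 without control 2 and 0.20 without the libraries rich in choroid plexus transcripts. Notch (-0.03), FGF and EGF (0.03), interferon (0.01) and cholesterol synthesis (0.00) lists had medians near 0 and held no call.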

How the data were processed

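Bulk RNA-seq of total RNA from cortex (3 control and 3 cKO libraries) was analysed. Reads were aligned by the authors with HISAT2 (no version named) to mm10, per the submitters' processing notes. Deposited values are raw counts, 1 per gene and library. No source used here names the counting program, strand setting or annotation. Values were checked to be whole numbers, and 0 columns were left unmapped.

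Genes kept by filterByExpr were normalised by TMM and tested with edgeR 4.0.16 (quasi-likelihood, R 4.3.3) on these 6 libraries without blocks, with Benjamini-Hochberg adjustment over all tested genes; intervals are 95%. Depth was 32560159 to 36713205 counts. Replicates varied beyond sampling noise, so precision is limited by the libraries' spread as well as by depth. The procedure was tested on simulated data in which genes varied independently, without the shared choroid plexus, meningeal and length differences of these libraries. An exact permutation test of 3 against 3 libraries cannot go below p = 0.1.

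Gene positions came from GENCODE release M21 (34065 of 34102 identifiers matched) and promoter windows from RefSeq. The members and gene lists, and the rule naming genes (all called genes, the next 10, the genes within 1 Mb of Srsf10, and list members at an unadjusted p under 0.05), were chosen with earlier results of these data known; list members beyond that rule were named as defining markers after their values were seen. A few genes that the rule names are not reported here. Alternatives were RLE factors, no count filter, DESeq2 1.42.0, all 12 libraries in 1 fit, a replicate block, a 1.5-fold minimum, sex as a covariate, dropping libraries with over 1000 CPM of Ttr, and leaving out each library. Figures were drawn with matplotlib 3.10.9.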

Additional observations from a re-analysis of the deposited data

How the results depend on the processing

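The 27 calls (6 higher, 21 lower) became 156 (54 higher, 102 lower) without the count filter, 310 (109 and 201) with DESeq2, 49 (14 and 35) in 1 fit of all 12 libraries, 12 (2 and 10) with sex as a covariate, and 0 (0 and 0) against a 1.5-fold minimum, where 161 genes had an unadjusted p under 0.05. RLE factors gave 28. Of the 27 genes, 20 passed in the fit of all 12 libraries. Leaving out each library gave 0 to 28 calls, 0 to 6 higher and 0 to 22 lower. Without the libraries rich in Ttr there were 22 calls, 13 of them among the 27. The cause of these differences was not tested.

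Replicate numbers shared by control and cKO do not pair the cortex libraries: the deviations of same-numbered libraries correlated at 0.02, -0.16 and -0.02. With the replicate block 1 gene passed, 0 higher and 1 lower.

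The 27 genes passed in 192 of 378 comparisons. Their direction was kept in all 378, which does not test it, since the groups did not overlap for these genes. Srsf10 reversed from 0.03 to between -0.0092 and -0.0028 when control 1, cKO 1 or cKO 3 was left out, in a range up to 0.11 (without cKO 2). Of 845 list medians 51 moved beyond the spread between libraries. Depth limits genes near 1 CPM, such as Cnr2 and Stpg1, to 70 counts or fewer a library.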
